A study of Mus musculus with 9 samples.

Results

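The microRNA hairpins outside the imprinted chromosome 12 cluster were followed through Argonaute (AGO) crosslinking and immunoprecipitation (CLIP) of mouse liver, with Mir122a as the reference. A hairpin is the folded precursor from which a mature microRNA is cut, and AGO is the protein that holds the mature strand. The members were all regions of the deposited matrix annotated as miRNA, other than those on chromosome 12 between 109440000 and 109760000 (mm10), with 1 entry per gene name. This gave 72 regions of 92645 in all, and a further 19 miRNA regions lay in the imprinted cluster and were set aside. The 5 control livers came from floxed littermates labelled WT, 3 female and 2 male, and the 4 KO livers from mice labelled miR-122 KO, 1 female and 3 male. All mice were 6 weeks old and each library came from its own mouse. The sources used here do not give the Cre line or promoter behind the deletion, or the liver cells it reached. Frozen liver powder was crosslinked with ultraviolet light, digested with RNase and precipitated with a pan-AGO antibody, so a read at a hairpin marks AGO-held RNA with the sequence of that hairpin.

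A primary microRNA transcript is cut by Drosha and then by Dicer into a short duplex, and 1 strand of it, the guide, stays on AGO. Bases 2 to 8 of the guide, the seed, pair with target messenger RNAs, which are then repressed, and microRNAs that share a seed form a family. In hepatocytes miR-122 is the dominant microRNA, whereas the miR-200 family is known from epithelia such as bile ducts and the miR-183 cluster from sensory cells. Of the 72 hairpins, 59 were found in the RefSeq microRNA table (GRCm38.p6) and 58 overlapped a mature arm, of which the arm nearest to the centre of the region was taken. That arm lay wholly within the region in 56, all but Mir1a-1 and Mir421, and it was a 5p arm in 35, a 3p arm in 19 and unnamed in 4. The 58 arms carried 48 distinct seeds. For 11 hairpins another hairpin makes the same strand, so its reads cannot be told apart by source: Mir16-1, Mir181b-1, Mir181b-2, Mir194-1, Mir19b-2, Mir219-1, Mir24-2, Mir26a-2, Mir30c-2, Mir92-1 and Mir92-2.

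The sequences below, RefSeq mature strands read 5′ to 3′ with the seed in capitals, are those of the hairpins on which the results turn and of their relatives. The miR-200 family comes first, then the miR-183 cluster, then miR-17 and its cluster neighbours, miR-181 copies, and single microRNAs of the liver.
mmu-miR-141-3p: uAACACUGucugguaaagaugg
mmu-miR-200c-3p: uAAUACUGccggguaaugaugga
mmu-miR-200b-3p: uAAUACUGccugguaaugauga
mmu-miR-429-3p: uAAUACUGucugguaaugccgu
mmu-miR-182-5p: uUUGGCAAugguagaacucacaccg
mmu-miR-96-5p: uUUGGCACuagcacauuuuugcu
mmu-miR-183-5p: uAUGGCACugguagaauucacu
mmu-miR-17-5p: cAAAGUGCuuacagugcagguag
mmu-miR-20a-5p: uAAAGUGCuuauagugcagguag
mmu-miR-18a-5p: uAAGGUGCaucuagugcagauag
mmu-miR-181c-5p: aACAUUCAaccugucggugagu
mmu-miR-181b-5p: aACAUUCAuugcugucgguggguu
mmu-miR-802-5p: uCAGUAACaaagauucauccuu
mmu-miR-148a-3p: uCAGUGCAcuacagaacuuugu
mmu-miR-30a-5p: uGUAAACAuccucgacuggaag
mmu-miR-27a-3p: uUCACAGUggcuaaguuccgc
Positions are counted from 1 at the 5′ end of the first-named strand. From miR-200c to miR-141 the seed differs by U4C, and outside the seed by C9U, G11U and U17A over the shared length. From miR-182 to miR-96 the only seed difference was A8C, and from miR-17 to miR-18a it was A4G. The strands of miR-17 and miR-20a differed by C1U and C12U, both outside the seed.

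Library totals ranged from 445912 to 1170130 counts. Of the 92645 regions, 17182 had enough counts to be tested, and 7752 of these (45.1%) differed between KO and control at an adjusted p under 0.05 in edgeR's quasi-likelihood test, 17.5% higher and 27.6% lower in KO. Levels are given as CPM, counts relative to the library total over the tested regions after TMM scaling, and fold changes as log2 of KO over control. All 10 hepatocyte markers had regions, with a summed level of 33770 to 42460 CPM in controls and 20300 to 24360 CPM in KO. All 15 neuron markers had regions too: their sum was 57.0 to 76.2 CPM in controls, with 5 of them at 0 (Syn1, Stmn2, Rbfox1, Mapt and Nefm), and 2345, 2755, 3105 and 13520 CPM in KO replicates 1 to 4. In AGO CLIP of bulk liver, fewer cells of a type, less RNA per cell and less AGO bound per transcript cannot be told apart. Regions with a miR-122 match were kept in these sums.

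In control liver Mir30a, of a family abundant in many tissues, stood first among the 72 hairpins. It held 8151, 9429, 3276, 4433 and 4473 CPM in the 5 libraries. KO libraries held 3927, 5623, 6935 and 11210 CPM of Mir30a, within and just above the control range. Next were Mir30d at 2308 ± 1189 CPM (SD, n = 5) and Mir27a at 1103 ± 418 CPM (SD, n = 5). Mir192 at 640 ± 213 CPM and Mir194-1 at 479 ± 144.1 CPM (SD, n = 5 each), microRNAs of liver and gut epithelium, were in the fourth and the eighth place. Between them came Mir122a at 622 CPM, Mir26a-2 at 590 CPM and Mir101a at 570 CPM (n = 5 each). From Mir30a to Mir101a, the SD ranges of neighbours in this order overlapped. Hairpins in regions of other classes were left out of this order. Of those, Mir30e averaged 2839 CPM in controls, above Mir30d, while Mir101b (957 CPM) and Mir191 (760.5 CPM) were above Mir192. Of the 72 regions, 69 were 70 bases wide, so that their levels are per equal length. The Mir122a region was 139 bases wide, Mirlet7d 111 and AC123611 173. Whether the order of reads at hairpins follows the amounts of the mature microRNAs was not tested.

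Mir30a, Mir30d and Mir27a together took 55.0% ± 5.70 (SD, n = 5) of all hairpin counts other than Mir122a in controls and 53.5% ± 2.22 (SD, n = 4) in KO. Without Mir122a, the hairpins held 1.78%, 1.74%, 0.769%, 0.960% and 1.04% of the counts of control replicates 1 to 5. In KO replicates 1 to 4 they held 0.861%, 1.37%, 1.86% and 2.13%. The group ranges overlapped over most of their length, and the means were 1.26% ± 0.471 (SD, n = 5) and 1.56% ± 0.559 (SD, n = 4). Counted against regions without a miR-122 match, the means were 1.71% ± 0.632 and 1.65% ± 0.592, so that the order of the groups turned with the denominator.

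**Figure D1:**
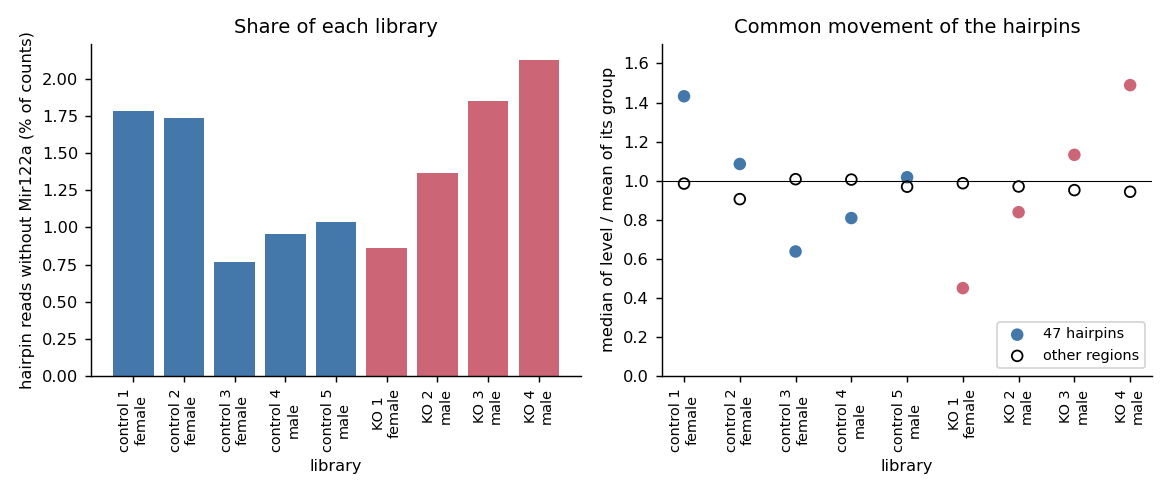
Left, bars give the share of each library's counts (percent) at the hairpins without Mir122a, control in blue and KO in red; right, filled points give the median over 47 tested hairpins of a library's level divided by its group mean, and open circles the same for the other tested regions. The hairpin medians run from 0.449 in KO replicate 1 to 1.49 in KO replicate 4, while the open circles stay between 0.905 and 1.01.

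The hairpins moved together from library to library. In KO replicate 1, the only female KO liver, 1 of 47 tested hairpins lay above its KO group mean, and in KO replicate 4 it was 46 of 47. Among controls, 42 of 47 lay above the control mean in replicate 1, but 3 in replicate 3 and 4 in replicate 4. The median level over the group mean was 0.449, 0.838, 1.13 and 1.49 in KO replicates 1 to 4, against 0.943 to 0.986 for the other regions of the same libraries. Accordingly the median SD of log2 levels within a group was 0.54 in controls and 0.76 in KO for the hairpins, against 0.34 and 0.44 for 1478 other regions of at least their median control level. The part of this common movement in the results below was not tested. For the hairpins that rose, shares of hairpin counts or ratios within a library, which do not use the library total, are given as well.

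Of the 72 hairpins, 48 passed the filter on low counts, and 24 with totals of 4 to 85 counts did not. Of the 48, 4 rose in KO (Mir141, Mir200c, Mir182 and Mir181c), 1 fell (Mir122a) and 43 did not pass the threshold; the background in all tested regions was 45.1% called. The median log2 fold of the 48 was 0.21, with 39 above 0, against 0.03 over all tested regions and 0.27 over the 13765 tested regions without a miR-122 match, of which 21.5% rose and 12.7% fell. Of the 48, 41 passed the filter through both groups, 4 through controls (Mir122a, Mir802, Mir345 and Mir187), 1 through KO (Mir182) and 2 through a mixture. Without KO replicate 1 the count of higher hairpins went from 4 to 17, and without KO replicates 1 and 4 to 18, with all 4 still among them in both; 14.4% and 14.3% of all regions tested were higher under those settings. Leaving out control replicate 2 gave 7, beside 19.3% of all regions. Mir141, Mir200c, Mir182 and Mir122a were called with every library left out in turn.

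**Figure D2:**
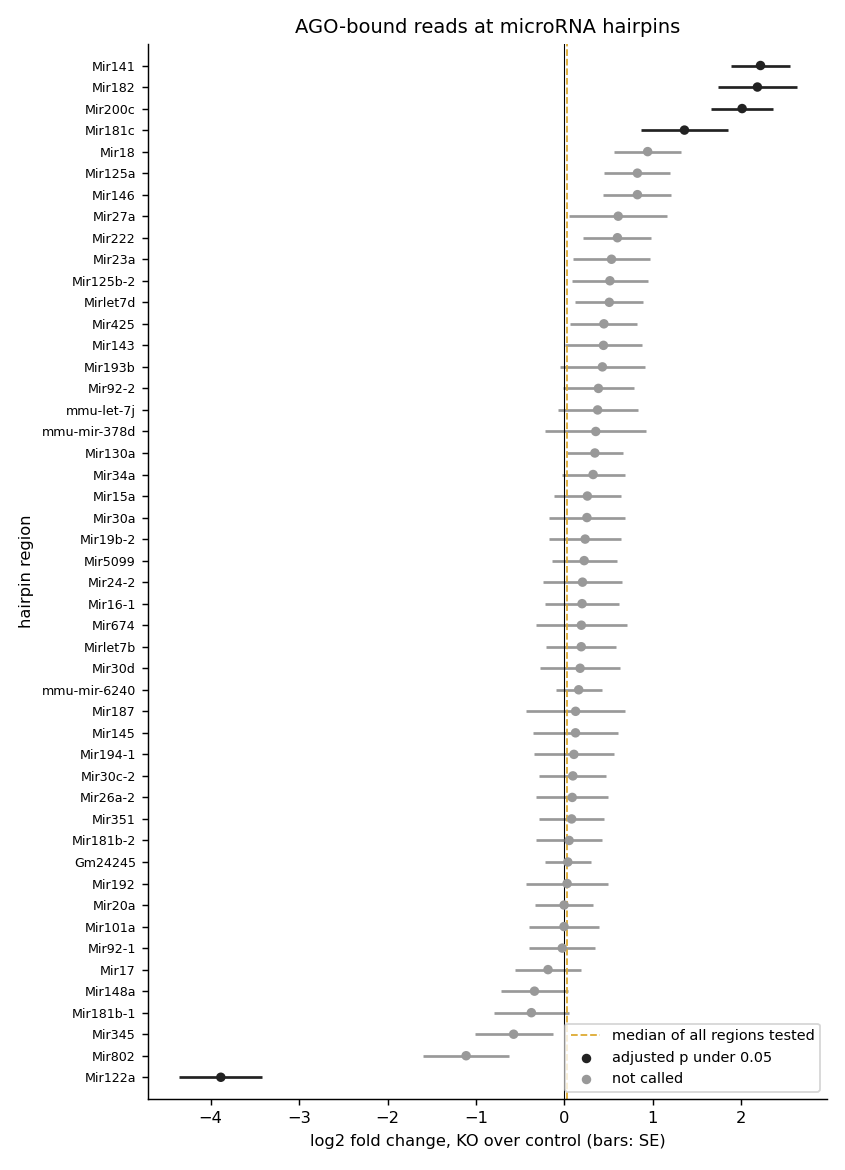
Points give the log2 fold change of KO over control for the 48 tested hairpins and bars its SE, with called hairpins in black and the dashed line at the median of all tested regions. Mir141, Mir182, Mir200c and Mir181c lie at 1.36 to 2.22 on the right, Mir122a at -3.89 on the left, and the other 43 in grey between -1.11 and 0.94.

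The deleted microRNA was checked first. The Mir122a region (mm10, chromosome 18, 65248844 to 65248982, plus strand, in no other annotated gene span) had 447, 270, 378, 396 and 324 reads across the controls, against 52, 3, 39 and 16 reads across the KO livers. Every KO library lay far below every control, but none was empty. The level was 622 ± 184 CPM (SD, n = 5) in controls and 38.1 ± 24.5 CPM (SD, n = 4) in KO, 16.3-fold lower, with a log2 fold of -3.89 (SE 0.47, edgeR adjusted p = 4.2e-06). It fell from the fifth place among the 72 hairpins to rank 42.

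The miR-200 family, microRNAs of epithelial cells that repress the zinc finger factors Zeb1 and Zeb2, rose with both of its members. Mir141 (chromosome 6, 124717891 to 124717960, minus strand) held 61.3, 26.1, 41.7, 38.0 and 53.2 CPM in the controls and 132.6, 213, 229 and 391 CPM in KO. The groups did not overlap, and the female KO liver, the lowest of the 4, was above all 3 female controls. The mean was 5.48-fold higher in KO, with a log2 fold of 2.22 (SE 0.34, edgeR adjusted p = 4.4e-05). Mir200c (chromosome 6, 124718300 to 124718369, minus strand), its neighbour in a cluster of 479 bases, held 26.02, 26.1, 22.01, 21.2 and 36.1 CPM in controls and 56.8, 126.5, 125.1 and 227 CPM in KO. Again the groups did not overlap; the log2 fold was 2.01 (SE 0.35, edgeR adjusted p = 0.000164). Levels that do not overlap and are higher in KO were found in 15.2% of tested regions.

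Both calls held under all 19 alternative settings, with log2 folds of 1.91 to 2.64 for Mir141 and 1.60 to 2.51 for Mir200c. As a share of hairpin counts, Mir141 went from 0.291% ± 0.113 (SD, n = 5) to 1.17% ± 0.127 (SD, n = 4), and Mir200c from 0.172% ± 0.0601 to 0.626% ± 0.0906, again without overlap. The count ratio of Mir200c to Mir141 was 0.424 to 1.00 in controls and 0.429 to 0.593 in KO. This ratio differed by -0.21 on the log2 scale, with an exact permutation p of 0.508 (two-sided, adjusted p = 0.790 over 14 hairpin pairs). The remaining family members that were measured, Mir200b and Mir429, lay in regions annotated as introns of Ttll10, outside the miRNA class. Mir200b held 72.6 to 160 CPM in controls and 190.5 to 639 CPM in KO (log2 fold 1.66, SE 0.37, edgeR adjusted p = 0.00143). Mir429 held 18.5 to 44.6 CPM in controls and 97.1 to 262 CPM in KO (log2 fold 2.16, SE 0.35, edgeR adjusted p = 8.3e-05). Thus 4 of 4 measured hairpins of the family, encoded at both of its loci, rose, beside 17.5% of all tested regions. Hairpins at the same locus are not separate observations.

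Bile duct markers were read beside this family. Of 5 genes, 3 had regions, and their summed level was 17.4 to 51.3 CPM in controls and 90.4 to 140 CPM in KO. Most of it was Spp1 (osteopontin) at 8.11 to 28.5 CPM in controls and 75.9 to 132.2 CPM in KO. Krt7, a bile duct keratin, held 0 to 2.32 and 2.70 to 5.64 CPM, Sox9 5.58 to 20.9 and 1.13 to 10.8 CPM, and Krt19 and Epcam had no region. The part of bile duct RNA in the rise of the family was not tested.

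**Figure D3:**
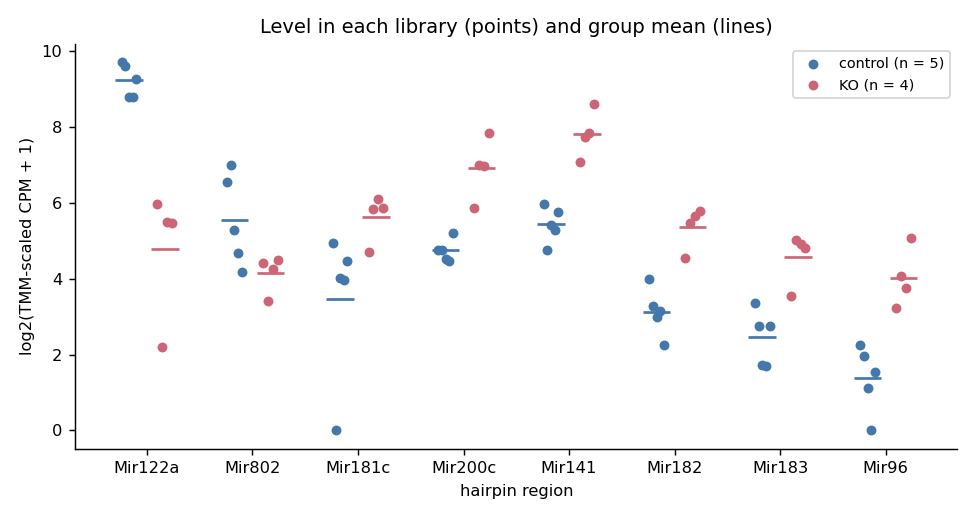
Points give log2(TMM-scaled CPM + 1) of 8 hairpins in each control (blue, n = 5) and KO library (red, n = 4), and lines the mean of these values. Control and KO points do not overlap for Mir122a, Mir200c, Mir141, Mir182, Mir183 and Mir96, and overlap for Mir802 and Mir181c.

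The miR-183 cluster (chromosome 6, 30165940 to 30169755, minus strand) lies in the span of the long non-coding RNA gene Mirc35hg and encodes miR-183, miR-96 and miR-182. Mir182 held 14.9, 8.69, 6.95, 7.82 and 3.799 CPM in the controls and 22.5, 43.4, 49.6 and 53.9 CPM in KO. The groups did not overlap; the log2 fold was 2.18 (SE 0.44, edgeR adjusted p = 0.000616), and it was called under all 19 alternatives (highest adjusted p = 0.0454). As a share of hairpin counts it went from 0.0517% ± 0.0185 (SD, n = 5) to 0.212% ± 0.0430 (SD, n = 4). Mir182 passed the filter on low counts only through the KO libraries. Its neighbours did not pass the filter and are described because of their values. Mir183 held 9.29, 5.79, 2.32, 2.24 and 5.70 CPM in controls and 10.7, 31.3, 29.3 and 26.97 CPM in KO. Mir96 held 5 counts in all in the controls and 43 in KO, or 0 to 3.72 CPM against 8.29 to 32.4 CPM. Every KO library was thus above every control for all 3 hairpins. With no filter, edgeR's adjusted p was 0.00471 for Mir183 and 0.00171 for Mir96. Within a library, the ratio of Mir183 to Mir182 was 0.286 to 1.5 in controls and 0.474 to 0.722 in KO, overlapping groups with an exact permutation p of 0.921 (two-sided). Neuron markers, given above, moved in the same libraries; KO replicate 4, with the most of them, was not highest for Mir183 but was for Mir182 and Mir96. The part of neuronal RNA in these values was not tested.

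The miR-181 family has 4 members here with the same seed, and they did not share a call. Mir181c (chromosome 8, 84178899 to 84178968, minus strand) held 29.7, 0, 15.1, 14.5 and 20.9 CPM in controls and 24.9, 56.6, 67.6 and 56.6 CPM in KO. Control replicate 1 lay above KO replicate 1, so the groups overlapped. The log2 fold was 1.36 (SE 0.49, edgeR adjusted p = 0.0313), and it was called under 12 of 19 alternatives. Its share of hairpin counts was 0 to 0.149% in controls and 0.161% to 0.334% in KO. The call was lost with library sizes taken from the hairpin counts (log2 fold 1.17, adjusted p = 0.180), with TMM factors from regions without a miR-122 match (adjusted p = 0.0731), and with a replicate block beside sex (log2 fold 0.85, adjusted p = 0.384). It was also lost without control replicate 3, 4 or 5 and without KO replicate 3 (adjusted p = 0.0664, 0.208, 0.0940 and 0.0599). Mir181b-1 went from 54.0 ± 25.4 CPM (SD, n = 5) to 55.0 ± 26.7 CPM (SD, n = 4; log2 fold -0.37, SE 0.42). Mir181b-2 went from 57.7 ± 24.7 to 73.8 ± 32.4 CPM (log2 fold 0.05, SE 0.37). Both hairpins make the same miR-181b strand. Mir181d, next to Mir181c in the genome, held 13 counts in controls and 20 in KO and was not tested. Whether Mir181c differed from the other copies was not tested.

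Among 5 microRNAs of liver epithelium, Mir122a fell and 4 did not pass the threshold. Mir802, a liver microRNA linked to insulin and glucose control, held 92.9, 127, 38.2, 24.6 and 17.1 CPM in controls and 20.1, 9.64, 18.04 and 21.6 CPM in KO. Only control replicate 5 reached into the KO range. The mean went from 60.1 ± 48.0 CPM (SD, n = 5) to 17.3 ± 5.34 CPM (SD, n = 4), with a log2 fold of -1.11 (SE 0.48, edgeR adjusted p = 0.0728). It passed in 6 of 19 alternatives, and without the sex term the log2 fold was -1.75 with an adjusted p of 0.0123; the 2 highest controls were female. Without KO replicate 1 it was -0.40 (adjusted p = 0.604), and without KO replicates 1 and 4 it was -0.61 (adjusted p = 0.420). Mir148a, a hepatocyte microRNA that acts on lipid genes, went from 157 ± 66.6 CPM to 132.3 ± 55.8 CPM (log2 fold -0.34, SE 0.38, edgeR adjusted p = 0.502). Mir192 held 389 to 855 CPM in controls and 302 to 1473 CPM in KO (log2 fold 0.03, SE 0.46), and Mir194-1, in the span of Iars2, had a log2 fold of 0.11 (SE 0.46).

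Clustered hairpins are cut from 1 transcript, and their ratio within a library does not depend on scaling. There were 9 clusters with 23 hairpins on 1 strand within 10 kb, giving 20 pairs, of which 14 had at least 50 counts over all libraries in both hairpins. None of the 14 passed an exact two-sided permutation test over the 9 libraries after Benjamini-Hochberg adjustment, a test chosen after the data were seen; 5 had an unadjusted p under 0.05. The smallest p came from Mir18 in the miR-17-92 cluster, a cluster of growth-promoting microRNAs (chromosome 14, 115043663 to 115044523, plus strand). Counts of Mir18 over those of Mir17 were 0.167, 0.143, 0.123, 0.260 and 0.207 in controls and 0.347, 0.519, 0.419 and 0.495 in KO. All 4 KO ratios were above all 5 controls, and the mean ratio was 2.49-fold higher (log2 difference 1.32, exact permutation p = 0.0159, the smallest this test can give, adjusted p = 0.0741). This test takes no account of sex, which is unevenly spread over the genotypes. The male controls (0.260 and 0.207) had the highest control ratios, and the female KO liver (0.347) had the lowest KO ratio. The part of sex in the difference was not tested. Against Mir20a and Mir92-1 the ratios of Mir18 separated in the same way, with the same p, but these pairs share the Mir18 counts. Mir20a over Mir17 ranged from 0.672 to 0.916 in controls and from 0.832 to 0.916 in KO (exact permutation p = 0.111, adjusted p = 0.259).

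In levels, Mir18 held 34.4 ± 12.7 CPM (SD, n = 5) in controls and 90.7 ± 47.8 CPM (SD, n = 4) in KO, and its log2 fold was 0.94 (SE 0.38, edgeR adjusted p = 0.0542). Mir17 had a log2 fold of -0.19 (SE 0.37), Mir20a of 0.00 (SE 0.33) and Mir92-1 of -0.02 (SE 0.37). None of 6 tested hairpins of miR-17-92 and its related clusters passed the threshold, with a median log2 fold of 0.12. In the miR-23a cluster, Mir27a held 682 to 1785 CPM in controls and 548 to 4286 CPM in KO (log2 fold 0.61, SE 0.55, edgeR adjusted p = 0.398). Its ratio to Mir23a stayed between 7.35 and 9.50 in controls and between 6.43 and 9.54 in KO (exact permutation p = 0.794). The ratio of Mir24-2 to Mir23a was 0.943 to 1.49 in controls and 0.874 to 1.00 in KO (exact permutation p = 0.0476, adjusted p = 0.133).

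**Figure D4:**
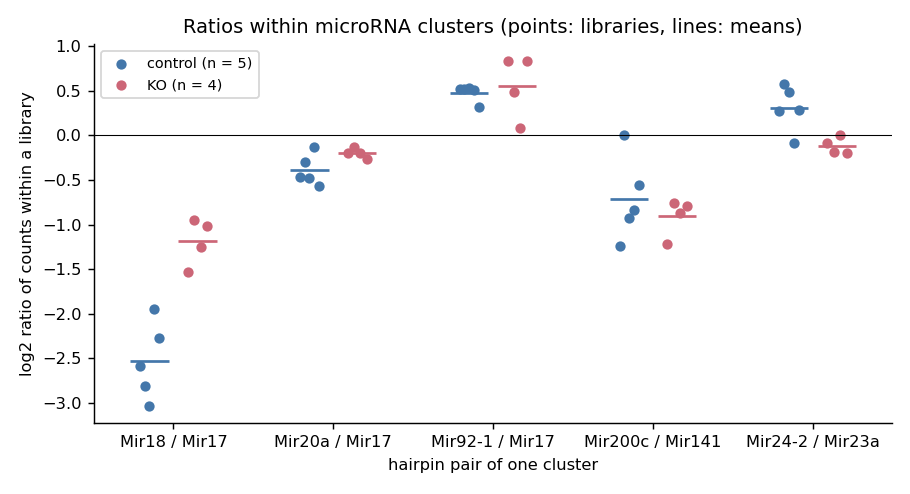
Points give, on a log2 axis, the ratio of counts of 2 hairpins of a cluster within each control (blue, n = 5) and KO library (red, n = 4), and lines the group means. Mir18 over Mir17 is the pair shown whose groups do not overlap; the other 4 pairs overlap.

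Within the miRNA class, no other group of hairpins held a call. Of the 43 tested hairpins without a call, 4 had an unadjusted p under 0.05 (Mir18, Mir125a, Mir146 and Mir802). The share of all tested regions at that unadjusted p was not computed, and 45.1% of them passed even the adjusted threshold. The 4 are therefore not read as a result about the hairpins. DESeq2 called Mir141, Mir200c, Mir182 and Mir181c higher and Mir122a lower, beside 16.6% and 27.1% of all tested regions. In the let-7 family, which restrains growth genes, 3 of 3 were tested and none passed (median log2 fold 0.38), with Mirlet7b at 320 CPM in controls and 410 CPM in KO. Of these, mmu-let-7j (log2 fold 0.38) was counted by name, and its seed differs from that of let-7b-5p and let-7d-5p. Mirlet7b and Mirlet7d had log2 folds of 0.19 and 0.51. In the miR-30 family 3 of 3 were tested, with log2 folds of 0.10 to 0.25. The miR-125 family had 2 of 2 tested: Mir125a went from 112 ± 52.4 CPM (SD, n = 5) to 177 ± 53.9 CPM (SD, n = 4; log2 fold 0.83, SE 0.37, edgeR adjusted p = 0.0828). The region of Mir125b-2 is centred on its 3p strand, not the usual guide, and its log2 fold was 0.52 (SE 0.43). Of immune microRNAs, Mir146, a brake on inflammatory signalling, went from 55.5 ± 20.9 CPM (SD, n = 5) to 110 ± 43.2 CPM (SD, n = 4; log2 fold 0.83, SE 0.38, edgeR adjusted p = 0.0926). Mir125a passed in 5 and Mir146 in 6 of 19 alternatives. Macrophage markers summed to 353 to 444 CPM in controls and 442 to 648 CPM in KO. Mir143 and Mir145, microRNAs of smooth muscle and stromal cells in the span of Carmn, had log2 folds of 0.44 (SE 0.43) and 0.13 (SE 0.48), while stellate cell markers summed to 688 to 870 CPM in controls and 1621 to 2157 CPM in KO. Mir15a and Mir16-1, in the span of Dleu2, had log2 folds of 0.26 (SE 0.38) and 0.20 (SE 0.42). Mir15b, of the same family but in a region of another class, was called higher and is given below. Mir26a-2 (0.09), Mir101a (0.00), Mir130a (0.35), Mir34a (0.33) and Mir425 (0.45) did not pass either.

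Of 4 brain microRNA hairpins (Mir124a-2, Mir132, Mir137 and Mir219-1), none had enough counts to be tested, and the groups overlapped for all 4. Mir132 held 2.90 to 13.01 CPM in controls and 1.18 to 34.95 CPM in KO, and Mir124a-2 held 3 counts in all in the controls and 10 in KO. Of 5 brain hairpins in regions of other classes, 2 were tested and none was called. The region named Mir3078 (chromosome 14, 64591142 to 64591211, plus strand) was different, and it was singled out for its values. It held 0 counts in 4 controls and 1 in control replicate 5, against 44 counts in KO, or 10.7, 7.23, 10.2 and 53.9 CPM. All KO libraries were above all controls, and KO replicate 4, where neuron markers summed highest, was the highest. Only 27 of the 70 bases of this region overlap the RefSeq hairpin Mir3078, and the whole region lies in the span of Mir124a-1hg, the long non-coding host gene of a miR-124 hairpin that is known from neurons. With no filter, edgeR gave Mir3078 an adjusted p of 5.3e-06, from the same values for which the region was singled out. The part of neuronal RNA in the Mir3078 reads was not tested.

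Across all 72 hairpins, the groups did not overlap for 8, with 6 higher in KO (Mir141, Mir200c, Mir182, Mir183, Mir96 and Mir3078) and 2 lower (Mir122a and AC123611). Among the 48 tested it was 4, or 3 higher and 1 lower, where 39.8% of all tested regions did not overlap. The share over all 92645 regions was not computed, so the count of 8 among the 72 has no background. With no filter on low counts, 9 of the 72 hairpins rose and 3 fell, where 12.2% of all 92645 regions rose and 11.3% fell. Beyond those named above these were Mir155, a microRNA of activated immune cells with 8 counts in controls and 37 in KO (adjusted p = 0.0211), Mir421 in the span of Ftx (adjusted p = 0.0286) and AC123611 in the span of Wdr70 (adjusted p = 0.0491), all by edgeR.

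A further 76 RefSeq hairpins outside the chromosome 12 cluster overlapped regions of other classes, such as introns, by at least 30 bases. Of 51 tested, 7 rose and 0 fell by edgeR's adjusted p, with a median log2 fold of 0.42. In all tested regions 17.5% rose and 27.6% fell, and in those without a miR-122 match 21.5% rose and 12.7% fell. At an unadjusted p under 0.05 by edgeR, 11 of the 51 were higher and 0 lower, for which the share over all regions was not computed. DESeq2 called 7 and 0, beside 16.6% and 27.1% of all tested regions. The largest changes were in the imprinted growth locus of H19 and Igf2 on chromosome 7. Mir675, cut from the H19 RNA, lies in a region annotated to H19 itself, a long non-coding RNA. Whether its reads came from the hairpin or from other H19 RNA was not tested. The region held 9.29, 168, 4.63, 102.8 and 602 CPM in controls and 1445, 1985, 1206 and 2298 CPM in KO (log2 fold 3.31, SE 0.73, edgeR adjusted p = 0.00118). Its controls spread widely, yet all lay below the lowest KO library. Mir483, in an intron of Igf2, held 0 to 17.1 CPM in controls and 84.0 to 154 CPM in KO, without overlap. Beside Mir200b and Mir429, the others that rose were Mir350 (log2 fold 1.31), Gm24148 in an intron of Ncl (1.14) and Mir15b in a region downstream of Smc4 (1.11), and the groups overlapped for all 3 of them.

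Reads at hairpins and reads at target sites are separate readouts, and both were measured in these libraries. For 19 microRNA families other than miR-122, the median log2 fold of chosen hairpins of the miRNA class was set beside that of matching regions. These were tested regions with a 7mer or 8mer seed match and no miR-122 match. Not every tested hairpin of a family was used: let-7 was Mirlet7b alone (0.19, against a median of 0.38 over the 3 tested by name, with mmu-let-7j among them). The miR-125 family left out Mir125b-2, and hairpins in regions of other classes were left out throughout. None of the hairpins called higher (Mir141, Mir200c, Mir182 and Mir181c) belongs to the 19 families, so the comparison does not cover them. For miR-378a the hairpin was mmu-mir-378d, which makes another strand, miR-378d, so this point does not pair a hairpin with its own matches. Over all 13660 tested regions without a miR-122 match that are not hairpins, the median log2 fold was 0.27, with 21.5% higher and 12.8% lower. The 1731 tested regions with a 7mer or 8mer match to miR-122-5p, a narrower set than the miR-122 matches set aside elsewhere, which include its other match classes and its passenger strand, had a median of -4.04, and 94.1% fell. Regions matching miR-143 had the highest median, 0.88, and 45.0% of 369 rose, while the Mir143 hairpin had a log2 fold of 0.44 and was not called. Regions matching miR-148a had the lowest median, -0.26, with 22.4% of 464 lower and 9.05% higher, beside the Mir148a hairpin at -0.34. Mir148b, of the same family and in an intron of Copz1, went the other way (log2 fold 0.78, SE 0.45) and was not called. Regions matching miR-30, from the family with the most hairpin reads, had a median of 0.36 and 20.3% of 1264 rose. Across the 19 families Pearson's r was 0.35 and Spearman's rho 0.15; the points share all 9 libraries, and some regions match several families.

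**Figure D5:**
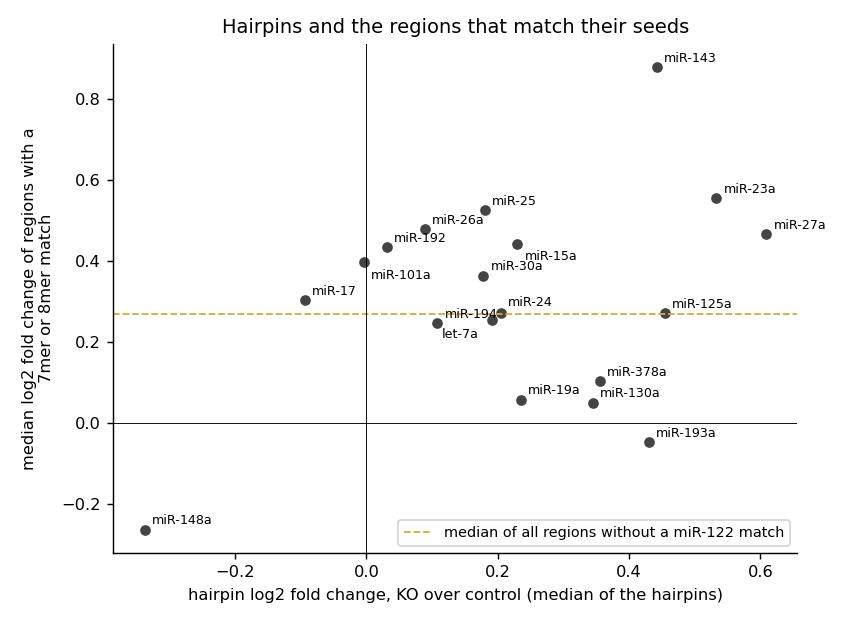
Each point is 1 of 19 microRNA families, with the median log2 fold of the hairpins chosen for it on the x axis and that of tested regions with its 7mer or 8mer match, without a miR-122 match, on the y axis. The miR-378a point uses the hairpin mmu-mir-378d. The hairpins called higher belong to none of these families. Hairpins range from -0.34 to 0.61 and regions from -0.26 to 0.88, with miR-148a lowest on both axes and miR-143 highest on the y axis.

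Genes of microRNA processing and silencing, such as Dicer1 and the Ago genes, were read for the regions in their own transcripts. Of 21 genes 15 had a region, and of their 66 tested regions 13 rose, 9 fell and 44 did not pass the threshold. In all tested regions 17.5% rose and 27.6% fell, and in those without a miR-122 match 21.5% rose and 12.7% fell. The summed level of the processing and silencing genes was 3849 to 4425 CPM in controls and 4650 to 5346 CPM in KO.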

How the data were processed

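Read counts per region of 9 AGO CLIP libraries were used as the authors deposited them, not normalized per the file headers. Reads were aligned with Bowtie2 to mm10, per the submitters' processing notes; of the peak caller, the treatment of PCR duplicates and how reads were counted, the sources used here say nothing. The deposited table also holds the authors' log2 fold of control over KO and a conservation score per seed match, neither of which supports a value here. It has 143524 lines, 1 per seed match, reduced to 92645 unique regions.

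All regions were fitted together with edgeR 4.0.16 in R 4.3.3 (filterByExpr, TMM factors, quasi-likelihood test with genotype and sex, Benjamini-Hochberg threshold 0.05), checked on simulated counts. DESeq2 1.42.0, other scaling factors, other covariates and left-out libraries were tried. Ratios within clusters used exact permutation in scipy 1.17.1, with 0.5 added to each count and no term for sex. Host genes are RefSeq spans on either strand.

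Members and lists were chosen with earlier results of these data known. Named were Mir122a, the 10 hairpins with the highest control mean, the called hairpins, up to 4 of each microRNA list by counts, and their copies. Mir18, Mir96, Mir183, Mir421, Mir802, Mir3078, AC123611 and the hairpins of other classes were named after their values were seen. Library totals limit precision, and intervals are SDs between mice.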

Additional observations from a re-analysis of the deposited data

Results flagged for a closer look

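In 94 groups of 4 or 5 libraries, the highest or lowest library was set against the others by Dixon's criterion, which marks about 1 in 20 groups by chance, and it marked 4. Mir125b-2 was at 128.3 CPM in control replicate 1 against 47.5 to 55.6 CPM in the other controls. Mir145 was at 208.2 CPM in control replicate 1 against 78.2 to 106.4 CPM in the others. Mir3078 was at 1.90 CPM in control replicate 5, a single count, against 0 in the others, and at 53.9 CPM in KO replicate 4 against 7.23 to 10.7 CPM in the other KO libraries.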

How the results depend on the processing

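The count of 5 called hairpins (4 higher, 1 lower; 17.5% and 27.6% of all regions) was 8 (7 higher; 24.6% of all regions) with upper quartile factors, 12 (9 higher, 3 lower; 12.2% and 11.3%) with no filter, 8 (6 higher, 2 lower; 18.7% and 28.1%) with no sex term and 19 (18 higher; 14.3%) without KO libraries 1 and 4. TMM factors from regions without a miR-122 match gave 2 lower (30.9% of all regions). Leaving out each library in turn gave 4 to 18 called, 3 to 17 higher and 1 to 2 lower. Of all regions tested in those fits, 13.9% to 19.3% were higher and 23.1% to 28.7% lower. Upper quartile factors moved the median of all tested regions from 0.03 to 0.26 and TMM factors without miR-122 matches to -0.20. Of the values of named hairpins under the alternatives, 652 kept their side of the threshold, 25 gained a call, 7 (all Mir181c) lost it, and 0 called values changed sign. Of the 652, 112 changed sign without being called in either fit. Same-numbered control and KO libraries correlated at -0.08 to 0.01 over 4 pairs. These values gave no sign of pairing by number, but 4 pairs cannot exclude pairing by litter or batch. The replicate block in place of sex, over libraries 1 to 4 of each genotype, gave 8 called (6 higher, 2 lower, beside 18.3% and 24.6% of all regions). The block beside sex gave 4 (3 higher, 1 lower, beside 9.97% and 18.9%). The setting with the most-counted region per hairpin was not run, since each hairpin has 1 region. Differences in low hairpins are limited by depth: the 24 untested hairpins had 4 to 85 counts in all libraries together.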
